A study of Mus musculus with 9 samples.

Results

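The genes described here encode the machinery that joins and divides mitochondria. The 10 genes, Mfn1, Mfn2, Opa1, Oma1, Dnm1l, Fis1, Mff, Mief1, Mief2 and Mtfp1, were taken by symbol from the 49315 gene IDs of the count table, and all 10 were found there. Each passed the filter on low values in every comparison. Expression was measured by RNA sequencing in 9 libraries, 3 each of GFP+ SB28 cells without the mKate2 signal (mKate2-), GFP+ SB28 cells with it (mKate2+), and astrocytes.

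SB28 is a mouse glioblastoma (GBM) cell line, so both tumor groups come from a single line. The astrocytes were primary neonatal cells of C57BL6 (mito::mKate2) mice, in which a broadly active promoter drives the red fluorescent protein mKate2 with a signal that sends it into mitochondria. Tumor cells and donor astrocytes shared a dish at equal numbers for 2 days, in medium with serum, EGF and FGF. Apart from a CellTrace Violet stain before co-culture, which the study's methods place on the astrocytes, no other treatment is described. All 3 groups were then sorted from these co-cultures, and the study lists 3 distinct co-cultures. No group grown without the other cell type was analysed here, so each value below describes cells that had been in contact. Total counts ranged from 24454561 in astrocyte replicate 1 to 39287841 in mKate2+ replicate 2, and levels are given as CPM, a gene's count per 1000000 counts of its library.

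Mitochondria form a network whose shape follows the balance of fusion and fission. Mitofusins 1 and 2 join outer membranes, and OPA1, a dynamin-like GTPase of the inner membrane, joins inner membranes and holds cristae closed. OMA1 is the stress-activated protease that cuts OPA1. Division is carried out by DRP1, the product of Dnm1l, which receptors on the outer membrane (MFF, the MiD proteins encoded by Mief1 and Mief2, and FIS1) draw from the cytosol. MTFP1 is an inner membrane protein linked to fission.

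The labels were first checked against marker genes. Slc1a3, a glutamate transporter of astrocytes, stood at 173, 177 and 236 CPM in the astrocyte libraries and between 0.56 and 2.38 CPM in the 6 SB28 libraries. Apoe was at 260 to 270 CPM in astrocytes and at 1.96 to 3.22 CPM in SB28 cells. Of 11 astrocyte markers, 7 had a mean at least 10 times higher in astrocytes than in either SB28 group, whereas Gja1 and Clu were as abundant in SB28 cells. The summed level of the 11 markers was 1091, 1053 and 1701 CPM in astrocytes, 466 to 513 CPM in mKate2- cells, and at 469 to 498 CPM in mKate2+ cells, and Gja1 was the most abundant marker in SB28 cells, at 241 to 284 CPM.

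The astrocyte libraries differed among themselves. Gfap, the intermediate filament that gives astrocytes their classical stain, was at 8.83, 3.42 and 19.4 CPM. Aqp4 was at 5.64, 6.82 and 59.7 CPM and Aldoc at 55.6, 33.8 and 362 CPM, so replicate 3 carried the highest level of each. S100b stayed between 0.33 and 2.16 CPM. Of the 8 oligodendrocyte lineage markers, Olig1 was the most abundant, at 541, 241 and 304 CPM in astrocytes, and Olig2 was at 155 to 268 CPM there, while Sox10, which defines that lineage, was at 0 to 0.0611 CPM and Mog at 0 to 0.221 CPM in the 9 libraries. Summed, these 8 markers came to 847, 444 and 508 CPM in astrocytes and to 17.1 to 27.01 CPM in SB28 cells. Among 7 microglial markers, Cx3cr1, Itgam and Trem2 did not exceed 0.245 CPM in any library and P2ry12 reached 2.54 CPM in astrocyte replicate 2. Tmem119, the most abundant of them, was at 24.8 to 61.1 CPM and was higher in each SB28 library than in each astrocyte library. Of 4 neuronal markers, Rbfox3 was at 0 in all 9 libraries, and Snap25 and Syt1 reached 0.484 and 1.59 CPM at most. Tubb3, the most abundant of them, was at 9.45 to 13.2 CPM in astrocytes and 18.2 to 24.8 CPM in SB28 cells. The 5 fibroblast and mural markers summed to 1410, 1492 and 1050 CPM in astrocytes and to 538 to 810 CPM in SB28 cells, mostly from the collagen gene Col1a2. Col1a1 was at 325, 324 and 151 CPM in astrocytes and 105 to 181 CPM in SB28 cells. Pdgfrb was at 57.7 to 60.9 CPM in astrocytes and 42.2 to 59.9 CPM in SB28 cells, and Dcn and Lum were at no more than 2.45 CPM. The part of these other markers in the differences from astrocytes given below was not tested. In such bulk samples, fewer cells of a type and less RNA per cell cannot be told apart.

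mKate2+ replicate 2 stood apart from the other SB28 libraries in a way that followed transcript length. Against the other 5, genes of up to 2441 exonic bases had a median log2 ratio of 0.18 and genes from 7692 bases a median of -0.32. Among the astrocytes, replicate 1 had the same tilt against the other 2 libraries (0.18 and -0.28) and replicate 3 the opposite (-0.22 and 0.20). Calls that were lost without any of these libraries are named below.

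The promoters of 5 members are shown. They include the member with the largest difference between tumor cells and astrocytes (Oma1) and the pair whose levels were most correlated across libraries (Opa1 and Dnm1l). Also shown are Mff and Fis1, DRP1 receptor genes called in opposite directions in mKate2- cells, where the receptor gene Mief1 was called higher as well. Each window runs from 250 bases before to 50 bases after a RefSeq transcript start on GRCm38.p6, in the direction of the gene, and is the window nearest to the GENCODE M21 start. All 10 members matched the RefSeq table, with 15 windows in all. Oma1 lies at chr4:103313596-103313895 on the + strand, Opa1 at chr16:29579084-29579383 on the + strand, Dnm1l at chr16:16358982-16359281 on the - strand, Mff at chr1:82724640-82724939 on the + strand and Fis1 at chr5:136953025-136953324 on the + strand. Capitals mark matches, on either strand, to the NRF1 motif GCGCATGC, the GABPA motif CCGGAAG, the CCAAT box, the E-box CACGTG, the SP1 GC box GGGCGG and the YY1 motif AAGATGGCG.
Oma1: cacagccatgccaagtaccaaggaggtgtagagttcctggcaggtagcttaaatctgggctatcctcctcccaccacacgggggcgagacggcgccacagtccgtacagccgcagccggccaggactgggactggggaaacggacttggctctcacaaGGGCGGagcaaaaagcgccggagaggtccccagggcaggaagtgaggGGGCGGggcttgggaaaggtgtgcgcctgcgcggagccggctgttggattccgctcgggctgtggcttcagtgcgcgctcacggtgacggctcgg
Opa1: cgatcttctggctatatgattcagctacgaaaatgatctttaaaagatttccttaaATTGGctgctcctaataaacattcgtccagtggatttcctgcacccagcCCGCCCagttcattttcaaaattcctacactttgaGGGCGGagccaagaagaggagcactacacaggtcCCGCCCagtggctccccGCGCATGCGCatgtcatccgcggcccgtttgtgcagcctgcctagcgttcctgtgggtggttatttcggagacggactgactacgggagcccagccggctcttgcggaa
Dnm1l: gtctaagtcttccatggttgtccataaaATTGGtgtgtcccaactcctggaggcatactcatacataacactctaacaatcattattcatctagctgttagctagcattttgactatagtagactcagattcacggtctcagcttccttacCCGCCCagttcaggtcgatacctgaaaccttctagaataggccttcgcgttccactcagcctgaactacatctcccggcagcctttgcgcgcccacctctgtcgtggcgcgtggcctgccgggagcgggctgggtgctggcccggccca
Mff: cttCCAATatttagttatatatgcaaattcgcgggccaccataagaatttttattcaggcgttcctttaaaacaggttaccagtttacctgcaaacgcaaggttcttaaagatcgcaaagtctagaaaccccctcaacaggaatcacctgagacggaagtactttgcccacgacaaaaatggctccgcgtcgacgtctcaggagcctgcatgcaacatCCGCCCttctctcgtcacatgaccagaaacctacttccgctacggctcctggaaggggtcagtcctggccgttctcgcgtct
Fis1: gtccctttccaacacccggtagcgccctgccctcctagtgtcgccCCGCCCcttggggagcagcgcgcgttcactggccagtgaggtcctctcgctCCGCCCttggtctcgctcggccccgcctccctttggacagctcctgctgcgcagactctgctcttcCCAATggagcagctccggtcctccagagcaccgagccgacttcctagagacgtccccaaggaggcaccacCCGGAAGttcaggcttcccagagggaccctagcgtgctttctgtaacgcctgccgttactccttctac

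A match to these letters is a description and not a site in use. The NRF1 letters were found in the Opa1 window alone among the members, as 2 overlapping matches at 59 and 57 bases before the start, because this motif nearly mirrors itself, and 2.71% of all 32851 windows hold them. Counted over the 15 windows, as the shares of all windows are, the GABPA letters were in 5 (of Mfn1, Dnm1l in its other window, Fis1 and Mief1), beside 8.86% of all windows. The SP1 GC box was in 12 of the 15 windows, beside 35.7% of all windows, and the CCAAT box in 7 of 15, beside 37.4%. The E-box letters were in 1 window, that of Mief2, beside 7.15% of all windows. The YY1 letters were found for 0 members and in 1.40% of windows. In the windows printed, Fis1 holds 1 GABPA match, 1 CCAAT box and 2 GC boxes, and Oma1 holds 2 GC boxes and no other match.

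The first question was whether tumor cells and astrocytes differ in these genes. Against astrocytes, mKate2- SB28 cells had higher levels of the OPA1 protease gene Oma1, of Opa1 itself, and of Dnm1l with its receptor genes Mff and Mief1. The receptor gene Fis1 was lower. The mitofusin genes Mfn1 and Mfn2, Mief2 and Mtfp1 did not pass the test. A gene was called at an adjusted P value below 0.05 with edgeR's quasi-likelihood test, with Benjamini-Hochberg adjustment over all 13356 genes tested. In that comparison 5 of the 10 members were higher and 1 was lower, where 63.1% of all genes tested were called, 29.3% higher and 33.8% lower. The median log2 fold change of the members was 0.56, against -0.038 for all genes tested. A difference of over 2-fold was seen for 1 member, Oma1, where 33.9% of all genes were called with over 2-fold, 11.5% higher and 22.4% lower. The levels of 7 members were higher and those of 2 were lower in mKate2- cells with no overlap between the groups, where 71.1% of all genes did not overlap, 33.8% higher and 37.3% lower.

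mKate2+ SB28 cells gave 6 members higher and 0 lower against the same astrocyte libraries, where 60.1% of the 13342 genes tested were called, 28.0% higher and 32.1% lower. The median of the members was 0.53, against -0.018 for all genes tested. Oma1 was again the only member past 2-fold, where 35.0% of all genes were called with over 2-fold, 12.2% higher and 22.8% lower. Without overlap, 5 members were higher and 1 was lower, where 67.1% of all genes did not overlap, 29.4% higher and 37.7% lower. The astrocyte libraries are shared by both comparisons, so the values are given side by side and not as independent evidence.

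**Figure D1:**
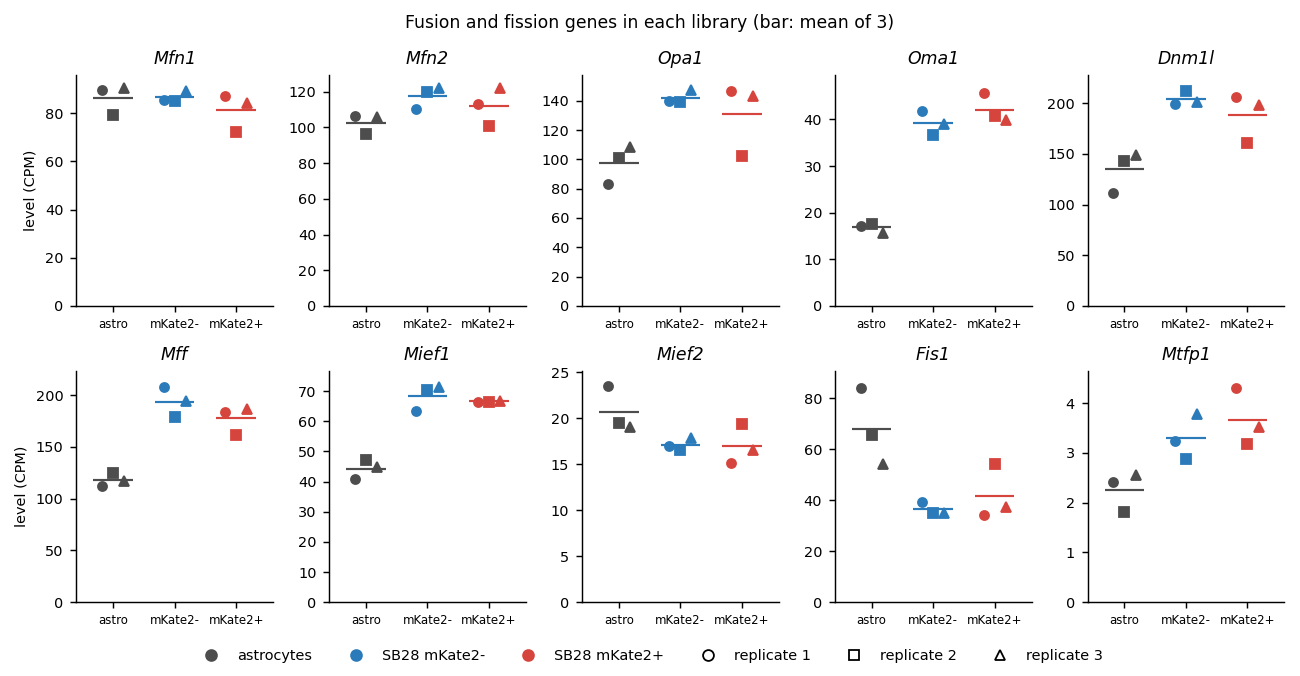
Level of each fusion and fission gene in CPM (vertical axes, from 0) in the 9 libraries, by group (color) and replicate (symbol), with a bar at the mean of 3. Oma1, Mff and Mief1 separate SB28 cells from astrocytes in every library, Fis1 is highest in astrocytes, and mKate2+ replicate 2 (red square) lies away from the other SB28 libraries for Opa1, Dnm1l and Fis1.

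**Figure D2:**
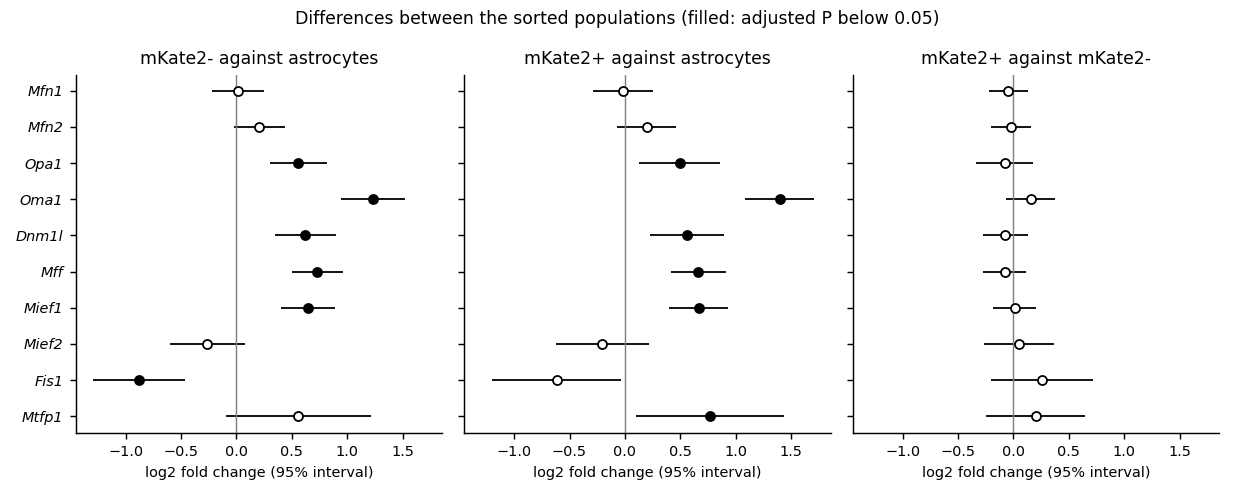
Log2 fold changes of the 10 genes with 95% intervals (horizontal axis) in the 3 comparisons, with filled points where the adjusted P value was below 0.05. In both comparisons with astrocytes Oma1 lies farthest to the right and Fis1 farthest to the left, and in mKate2+ against mKate2- cells all 10 intervals cross 0.

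Oma1 encodes the zinc metalloprotease of the inner membrane that cleaves OPA1 when mitochondria are stressed. The gene (ENSMUSG00000035069) is protein coding and lies at chr4:103313812-103371868 of GRCm38, with 2144 exonic bases. Its level was 17.2, 17.7 and 15.7 CPM in astrocytes, 41.7, 36.7 and 39.1 CPM in mKate2- cells, and at 45.8, 40.7 and 39.9 CPM in mKate2+ cells. The lowest SB28 library was above the highest astrocyte library, and the SB28 groups overlapped. Oma1 was 2.35-fold higher in mKate2- cells (log2 1.23 ± 0.12 SE, n = 3 and 3, edgeR adjusted P = 0.000111) and 2.63-fold higher in mKate2+ cells (log2 1.40 ± 0.13, edgeR adjusted P = 0.000124) than in astrocytes. Every left-out library and every other setting tried kept both calls.

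Opa1 (ENSMUSG00000038084, chr16:29579334-29654884, 7875 exonic bases) encodes the substrate of that protease. It was at 83.0, 100.6 and 108.5 CPM in astrocytes, at 139.7, 139.0 and 147.2 CPM in mKate2- cells, and at 146.5, 102.3 and 143.3 CPM in mKate2+ cells. The mKate2- libraries lay above all astrocyte libraries, and mKate2+ replicate 2 lay among the astrocytes. The difference from astrocytes was 0.56 ± 0.11 on the log2 scale in mKate2- cells (edgeR adjusted P = 0.00307) and 0.50 ± 0.16 in mKate2+ cells (edgeR adjusted P = 0.027). The second call was lost under upper-quartile normalization and without astrocyte replicate 1 or 2 or mKate2+ replicate 1 or 3, with edgeR adjusted P from 0.0552 to 0.0938. Without mKate2+ replicate 2, the Opa1 difference was 0.62.

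The mitofusin genes did not pass the test. Mfn1 (ENSMUSG00000027668, chr3:32529465-32579239), which encodes the mitofusin best known for tethering outer membranes, was at 89.7, 79.3 and 90.6 CPM in astrocytes, 85.7, 85.0 and 89.4 CPM in mKate2- cells, and at 87.1, 72.4 and 84.2 CPM in mKate2+ cells. All 3 groups overlapped. The log2 difference from astrocytes was 0.016 (95% interval -0.22 to 0.25) in mKate2- cells and -0.019 (-0.29 to 0.25) in mKate2+ cells. The interval bounds leave a difference of 2-fold in either direction outside, and the sign changed with the setting.

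Mfn2 (ENSMUSG00000029020, chr4:147873599-147904704), whose product also tethers mitochondria to the endoplasmic reticulum, was at 106.2, 96.2 and 105.7 CPM in astrocytes. It was at 110.5, 119.8 and 122.1 CPM in mKate2- cells, above every astrocyte library, and at 113.0, 100.6 and 122.2 CPM in mKate2+ cells, where replicate 2 overlapped the astrocytes. The log2 differences of 0.21 ± 0.10 and 0.20 ± 0.11 did not pass the test (edgeR adjusted P = 0.105 and 0.167). With a trend over gene length removed from each library, which moved the median of all genes to 0.11 and 0.13, Mfn2 differed by 0.33 and 0.34 and was called in both comparisons (edgeR adjusted P = 0.0209 and 0.0288).

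The ratio of Mfn1 to Mfn2 does not depend on library size. Per kilobase of exonic length, it was 0.718, 0.700 and 0.728 in astrocytes, 0.658, 0.603 and 0.622 in mKate2- cells and 0.655, 0.611 and 0.585 in mKate2+ cells. The astrocyte libraries held the 3 highest ratios. On the log2 scale the mean was -0.48 ± 0.029 (SD, n = 3) in astrocytes, -0.67 ± 0.064 in mKate2- cells and -0.70 ± 0.082 in mKate2+ cells. Each SB28 group differed from astrocytes with P = 0.1 in an exact two-sided permutation test, the smallest value that 3 against 3 libraries allow, and mKate2+ from mKate2- cells with P = 0.7. With the ratio below, 6 such comparisons were made, and none can pass a threshold of 0.05 in this design.

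Dnm1l (ENSMUSG00000022789, chr16:16312230-16358959, 5203 exonic bases) encodes DRP1, the GTPase that constricts mitochondria. Its level was 111.8, 143.4 and 148.7 CPM in astrocytes, 199.3, 212.4 and 201.7 CPM in mKate2- cells, and at 206.2, 160.8 and 198.7 CPM in mKate2+ cells. Every SB28 library was above every astrocyte library, and mKate2+ replicate 2 was the lowest of the 6. Dnm1l was 1.54-fold higher in mKate2- cells (log2 0.62 ± 0.12, edgeR adjusted P = 0.00258) and 1.47-fold higher in mKate2+ cells (log2 0.56 ± 0.14, edgeR adjusted P = 0.011). In mKate2+ cells the log2 difference of Dnm1l was 0.44 without astrocyte replicate 1 and 0.64 without mKate2+ replicate 2. An antisense gene, Gm49521, shares 243 exonic bases with Dnm1l on the opposite strand and was not analysed here.

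Mff (ENSMUSG00000026150, chr1:82724890-82752394) encodes the main outer membrane receptor of DRP1. It was at 112.0, 124.4 and 117.3 CPM in astrocytes, 208.0, 179.1 and 194.2 CPM in mKate2- cells, and at 183.7, 161.9 and 187.1 CPM in mKate2+ cells. The groups of tumor cells and astrocytes did not overlap. The difference was 1.66-fold in mKate2- cells (log2 0.73 ± 0.099, edgeR adjusted P = 0.000466) and 1.58-fold in mKate2+ cells (log2 0.66 ± 0.11, edgeR adjusted P = 0.00126).

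Of the MiD receptor genes, Mief1 passed the test and Mief2 did not. Mief1 (ENSMUSG00000022412, chr15:80234018-80253371) was at 40.7, 47.3 and 44.7 CPM in astrocytes, 63.4, 70.4 and 71.5 CPM in mKate2- cells, and at 66.5, 66.5 and 66.6 CPM in mKate2+ cells, with no overlap between tumor cells and astrocytes. It was higher by 0.64 ± 0.10 in mKate2- cells (edgeR adjusted P = 0.00111) and by 0.66 ± 0.11 in mKate2+ cells (edgeR adjusted P = 0.00171) on the log2 scale. Another annotated gene, AC140267.1, shares 213 exonic bases with Mief1 on the same strand and was not analysed here.

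Mief2 (ENSMUSG00000018599, chr11:60728398-60732951) was at 23.5, 19.5 and 19.0 CPM in astrocytes, 16.9, 16.5 and 17.8 CPM in mKate2- cells, and at 15.2, 19.3 and 16.5 CPM in mKate2+ cells. The mKate2- libraries lay below the astrocytes, and mKate2+ replicate 2 lay among them. Its log2 differences of -0.26 ± 0.15 and -0.20 ± 0.18 did not pass the test (edgeR adjusted P = 0.151 and 0.357), and with the length trend removed they were -0.020 and -0.022.

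Per kilobase, Mief1 was below Mief2 in each astrocyte library, at ratios of 0.580, 0.814 and 0.787. It was above Mief2 in each SB28 library, at 1.26, 1.43 and 1.34 in mKate2- cells and 1.47, 1.15 and 1.35 in mKate2+ cells. The mean log2 ratio was -0.48 ± 0.27 (SD, n = 3) in astrocytes, 0.42 ± 0.093 in mKate2- cells and 0.40 ± 0.18 in mKate2+ cells. The exact permutation test gave P = 0.1 for each SB28 group against astrocytes, again its smallest value, and P = 1.0 between the SB28 groups. The side of 1 on which the ratio falls depends on the exonic lengths used, which enter every library alike. The length tilt of the libraries does not. Mief1 has 8106 exonic bases and Mief2 has 2716. The ratio was lowest of the astrocytes in replicate 1 and lowest of the SB28 libraries in mKate2+ replicate 2. The part of the tilt in this ratio was not tested. With the length of the longest transcript in place of all exons, Mief1 and Mief2 stood at 8.60 and 8.20 CPM per kilobase in astrocytes.

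**Figure D3:**
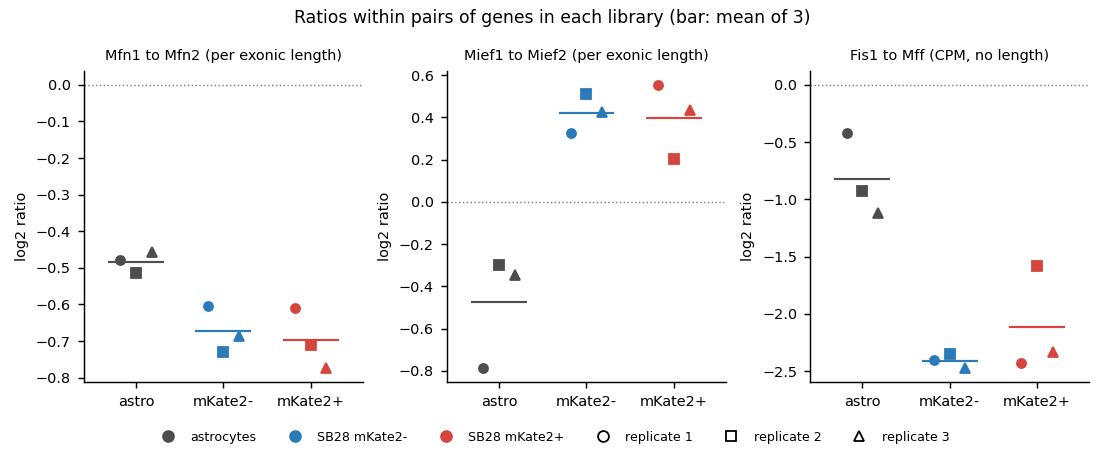
Log2 ratios (vertical axes) of Mfn1 to Mfn2 and Mief1 to Mief2 per exonic length and of Fis1 to Mff in CPM, in each of the 9 libraries, with bars at group means. The astrocyte libraries do not overlap the SB28 libraries for any of the 3 pairs, and mKate2+ replicate 2 has the highest Fis1 to Mff ratio among SB28 libraries.

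Fis1 (ENSMUSG00000019054, chr5:136953275-136966234, 1714 exonic bases), which encodes a small tail-anchored outer membrane protein first known as a fission factor, was the member called lower in mKate2- cells. It was at 83.8, 65.6 and 54.0 CPM in astrocytes, 39.4, 35.1 and 35.1 CPM in mKate2- cells, and at 34.1, 54.0 and 37.2 CPM in mKate2+ cells. The mKate2- libraries lay well below the astrocytes, and mKate2+ replicate 2 came to the level of astrocyte replicate 3. Fis1 was 1.84-fold lower in mKate2- cells than in astrocytes (log2 -0.88 ± 0.18, edgeR adjusted P = 0.00342), and this call held in every setting tried.

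In mKate2+ cells the Fis1 difference of -0.62 ± 0.25 did not pass the test (edgeR adjusted P = 0.0641). It passed in 7 of 13 other settings, among them without mKate2+ replicate 2 (-0.89, edgeR adjusted P = 0.0161), without astrocyte replicate 3 (-0.78, 0.0315), with the gene length trend removed (-0.45, 0.0415), with upper-quartile normalization (-0.72, 0.0424), in a fit to all 9 libraries (-0.62, 0.0322) and with DESeq2 (-0.63, 0.0385). Fis1 has 1714 exonic bases. Its level was the highest of the group in astrocyte replicate 1 and mKate2+ replicate 2 and the lowest of the group in astrocyte replicate 3. In mKate2+ replicate 2, short genes lay on both sides of the other SB28 libraries, with Fis1 at 0.58 and Mtfp1 (1738 bases) at -0.15 on the log2 scale. The part of the length tilt of the libraries in the Fis1 difference was tested only by the fit with the trend removed, which gave -0.58 in mKate2- cells.

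The ratio of Fis1 to Mff in CPM, chosen after the values were seen and so given as a description, was 0.749, 0.527 and 0.461 in astrocytes. It was 0.189, 0.196 and 0.181 in mKate2- cells and 0.186, 0.334 and 0.199 in mKate2+ cells. The lowest astrocyte ratio was above the highest SB28 ratio, which again belonged to mKate2+ replicate 2. Fis1 has 1714 exonic bases and Mff has 9757, and the part of the length tilt of the libraries in this ratio was not tested.

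Mtfp1 (ENSMUSG00000004748, chr11:4091480-4095445) was the least abundant member, at 2.41, 1.80 and 2.56 CPM in astrocytes, 3.24, 2.87 and 3.79 CPM in mKate2- cells, and at 4.30, 3.18 and 3.51 CPM in mKate2+ cells. No SB28 library was as low as an astrocyte library. The log2 difference of 0.56 ± 0.28 in mKate2- cells did not pass the test (edgeR adjusted P = 0.118) except with the length trend removed, without and with the replicate block (0.84 and 0.85, edgeR adjusted P = 0.0273 and 0.0412), and the 0.77 ± 0.29 in mKate2+ cells did (edgeR adjusted P = 0.0482). The mKate2+ call was lost in 9 of 13 other settings, among them every left-out library, with edgeR adjusted P up to 0.156.

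Levels of different genes were compared per kilobase of exonic length. In astrocytes Fis1 stood highest, at 39.6 ± 8.8 CPM per kilobase (SD, n = 3), followed by Dnm1l at 25.9 ± 3.8 and Mfn2 at 19.8 ± 1.1. Mfn1, Opa1 and Mff followed at 14.2 ± 1.0, 12.4 ± 1.7 and 12.1 ± 0.64, with gaps between neighbours smaller than their summed SDs. In mKate2- cells Dnm1l stood highest at 39.3 ± 1.3, followed by Mfn2, Fis1, Mff, Oma1 and Opa1 from 22.6 down to 18.02 CPM per kilobase, 5 genes whose neighbours lay within their summed SDs. In mKate2+ cells Dnm1l again stood highest at 36.2 ± 4.7, followed by Fis1 at 24.4 ± 6.3 and Mfn2 at 21.6 ± 2.1, a gap smaller than their summed SDs. Fis1 was above Mfn2 in replicate 2 (31.5 against 19.4 CPM per kilobase) and below it in replicates 1 (19.9 against 21.8) and 3 (21.7 against 23.5). Mtfp1 was lowest in all groups, at 1.30 to 2.11 CPM per kilobase. The order depends on the length used: per kilobase of the longest transcript, Mff was highest in both SB28 groups, at 92.8 and 85.1, and next to Fis1 in astrocytes, at 56.5 against 71.5.

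The pattern of Oma1 across the 9 libraries was most like those of Ube2c (Pearson's r = 0.996), Shmt2 (0.995) and Mthfd2 (0.995), measured on log2 CPM. Of 13450 genes compared, 1154 had r above 0.95 with Oma1. Ube2c stood at a mean of 58.4 CPM in astrocytes, 217 CPM in mKate2- cells, and at 242 CPM in mKate2+ cells. Among the members, Dnm1l and Opa1 were most alike (r = 0.972) and Fis1 and Dnm1l least alike (r = -0.987). These coefficients describe libraries that fall into cell types and share length tilts, and no test was made of them.

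The question at the center of the study is what differs in tumor cells that carry astrocyte mitochondria. In mKate2+ against mKate2- SB28 cells, the fusion and fission genes showed 0 calls among 10, and edgeR called 0 of all 11854 genes tested (0%). At an unadjusted P value below 0.05, edgeR found 0 of the 10 members, where 2.03% of all genes tested passed, and DESeq2 called 0 members and 0 genes. The criteria of the study for genes higher in mKate2+ cells (a mean count above 50, over 1.5-fold higher and P below 0.05 without adjustment) were met by 0 members, where 0.194% of all genes tested met them. The levels of the 2 groups overlapped for all 10 members, where 8.83% of all genes had levels that did not overlap, 2.16% higher and 6.67% lower.

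The log2 differences between mKate2+ and mKate2- cells ran from -0.078 for Mff to 0.26 for Fis1, with a median of -0.0046 against 0.0033 for all genes tested. Dnm1l differed by -0.071 (95% interval -0.28 to 0.13), Opa1 by -0.076 (-0.33 to 0.18), Mfn1 by -0.046 (-0.22 to 0.13), Mfn2 by -0.022 (-0.21 to 0.16) and Mief1 by 0.012 (-0.18 to 0.21). Oma1 differed by 0.16 (-0.063 to 0.37), with the smallest P value among the members (edgeR adjusted P = 0.923). Mief2 differed by 0.051 (-0.27 to 0.37). Mtfp1 differed by 0.20 (-0.24 to 0.64) and Fis1 by 0.26 (-0.20 to 0.72), the widest intervals among the members. The 10 intervals together ran from -0.33 to 0.72, so a change of 2-fold lay outside each of them. The calls that Fis1 and Mtfp1 had against astrocytes in a single SB28 group therefore do not show that the SB28 groups differ.

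The Fis1 difference rested on 1 library. Without mKate2+ replicate 2 it was -0.032, and with the gene length trend removed it was 0.11. Compared with the mean of the other 5 SB28 libraries, mKate2+ replicate 2 was higher by 0.58 for Fis1 and by 0.22 for Mief2 on the log2 scale, and lower by values from -0.22 for Mfn2 to -0.48 for Opa1 in 5 members, Mfn1, Mfn2, Opa1, Dnm1l and Mff. It was the highest SB28 library for 2 members and the lowest for 5. Over all 11840 genes with a known length it was highest for 2486 and lowest for 5601. The 11 astrocyte markers summed to 489 CPM in this library, within the range of the other SB28 libraries. Of these markers, Slc1a3 and Apoe, at 0.56 and 1.96 CPM, were at their lowest among the 9 libraries, whereas Aldh1l1, at 8.48 CPM, was at its highest among the SB28 libraries. Sox9 and Gja1, at 99.4 and 280 CPM, lay within the range of the other SB28 libraries.

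**Figure D4:**
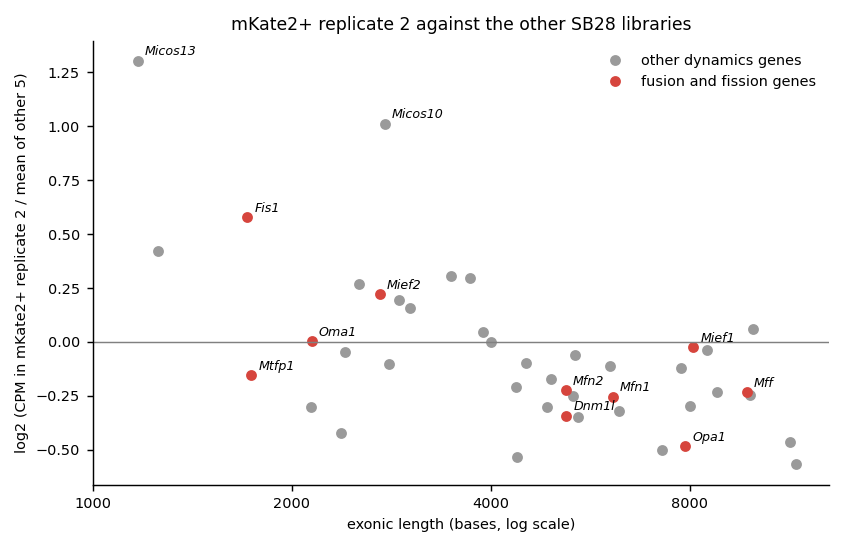
Log2 ratio of the level in mKate2+ replicate 2 to the mean of the other 5 SB28 libraries (vertical axis) against exonic length in bases (horizontal log axis), for the 10 fusion and fission genes (red) and 33 other genes of mitochondrial dynamics (grey). Micos13, Micos10 and Fis1 lie farthest above 0, short genes lie on both sides of it (Pgam5 at -0.42, Mtfr2 at -0.30 and Mtfp1 at -0.15 below), and most genes over 4000 bases lie below it.

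A further 35 genes that act on mitochondrial shape were followed in 5 groups, and 33 of them passed the filter. Pld6 and Gdap1 did not, with levels of at most 0.777 and 0.285 CPM. Against astrocytes, 16 of the 33 were higher and 6 lower in mKate2- cells, and 17 were higher and 6 lower in mKate2+ cells. The 22 and 23 genes called stand beside 63.1% and 60.1% of all genes tested (29.3% and 28.0% higher, 33.8% and 32.1% lower), the background for each of the groups below. Their median log2 differences were 0.32 and 0.50, beside -0.038 and -0.018 for all genes. In mKate2+ against mKate2- cells, 0 of the 33 passed the test, 0 had an unadjusted P value below 0.05 with edgeR and 0 had levels that did not overlap, beside 0%, 2.03% and 8.83% of all genes tested.

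**Figure D5:**
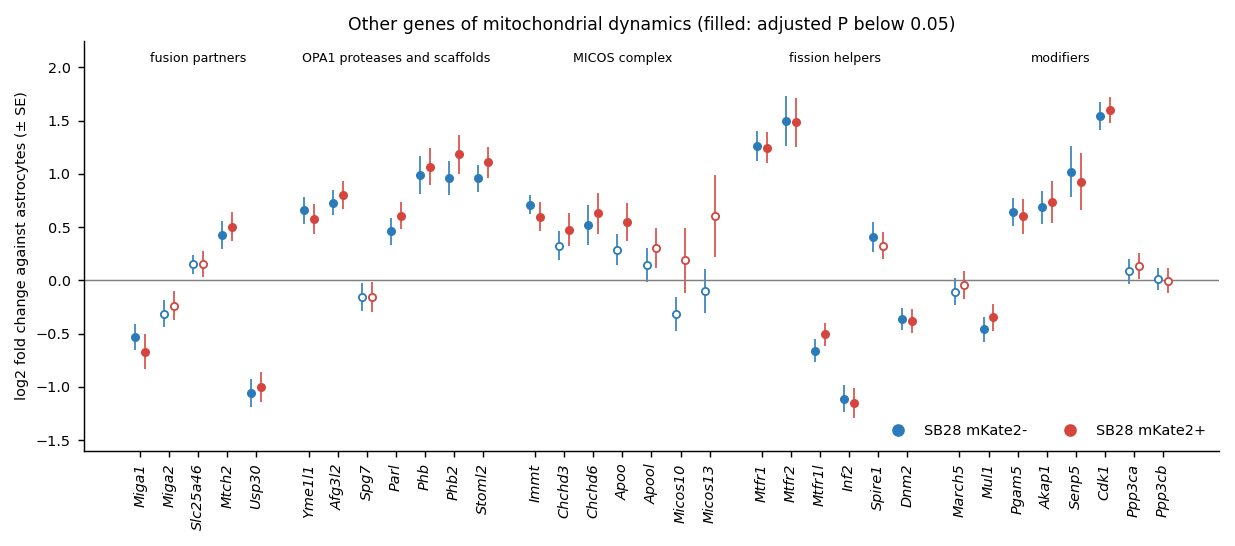
Log2 fold changes against astrocytes with standard errors (vertical axis) of 33 other genes of mitochondrial dynamics in mKate2- (blue) and mKate2+ (red) SB28 cells, by group, with filled points where the adjusted P value was below 0.05. Of the 7 OPA1 proteases and scaffolds, 6 are filled and above 0 in both comparisons, and fission helpers lie on both sides of 0.

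The inner membrane proteases and scaffolds that act on OPA1 were higher in tumor cells for 6 of 7 genes in both comparisons, where 29.3% and 28.0% of all genes tested were higher. Phb and Phb2 encode the prohibitins, ring-forming scaffolds that stabilize long OPA1. Phb was at 103 to 158 CPM in astrocytes, 228 to 280 CPM in mKate2- cells, and at 247 to 282 CPM in mKate2+ cells, and was higher by 0.99 ± 0.18 and 1.06 ± 0.17 on the log2 scale. Phb2 was higher by 0.96 ± 0.16 and 1.18 ± 0.19, and Stoml2, a scaffold that holds proteases together, by 0.96 ± 0.13 and 1.11 ± 0.14. The protease genes Afg3l2 (0.73 and 0.80), Yme1l1 (0.66 and 0.57) and Parl (0.46 and 0.61) were also higher. The largest edgeR adjusted P value among these 12 calls was 0.0131, for Parl in mKate2- cells, and Parl lost that call without mKate2- replicate 1 (0.0573). Spg7, which encodes the paraplegin subunit of a protease it forms with AFG3L2, had log2 values of -0.16 and -0.16 and was not called.

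Of the MICOS complex, which builds cristae junctions, 2 of 7 genes were higher in mKate2- cells and 4 in mKate2+ cells. Immt, its core subunit, was at 141 to 144 CPM in astrocytes, 226 to 238 CPM in mKate2- cells, and at 229, 165 and 221 CPM in mKate2+ cells, and was higher by 0.71 ± 0.092 (edgeR adjusted P = 0.000358) and 0.60 ± 0.13 (0.00587). Without mKate2+ replicate 2 the latter was 0.71. Chchd6 was higher by 0.52 and 0.63 (edgeR adjusted P = 0.0413 and 0.0227). Chchd3 and Apoo were called in mKate2+ cells (0.48 and 0.55) and not in mKate2- cells (0.32 and 0.29), where both were called with the length trend removed (0.53 and 0.51) and Chchd3 also without astrocyte replicate 1 (0.43). The mKate2+ calls of Chchd3, Chchd6 and Apoo were lost without mKate2+ replicate 2, with edgeR adjusted P from 0.0654 to 0.0894, and also without astrocyte replicate 2. Those of Chchd3 and Apoo were also lost without astrocyte replicate 3 (0.34 and 0.495), and those of Chchd3 and Chchd6 without mKate2+ replicate 3. Chchd6 lost its mKate2- call without astrocyte replicate 2 or mKate2- replicate 1 or 3. Apool, Micos10 and Micos13 were not called in either comparison, except for Micos13 in mKate2+ cells with the length trend removed and the replicate block (0.54, edgeR adjusted P = 0.0425).

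Micos13 and Micos10 had the largest log2 differences between mKate2+ and mKate2- cells among the 33, at 0.70 ± 0.37 and 0.50 ± 0.31, with edgeR adjusted P of 0.923 for both. Micos13 was at 31.2, 23.4 and 22.3 CPM in mKate2- cells, and at 25.8, 64.4 and 27.9 CPM in mKate2+ cells. Micos10 was at 56.7, 39.9 and 49.6 CPM and at 49.2, 98.4 and 48.5 CPM. In both genes mKate2+ replicate 2 stood alone, and without it the differences were 0.073 and 0.010.

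Genes of fission helpers and actin nucleators split. Mtfr1 and Mtfr2, members of a family that promotes mitochondrial fission, were higher by 1.27 ± 0.14 and 1.499 ± 0.23 in mKate2- cells and by 1.25 ± 0.15 and 1.48 ± 0.23 in mKate2+ cells. Mtfr1 was at 67.2 to 95.2 CPM in astrocytes and at 165 to 200 CPM in SB28 cells, and Mtfr2 at 3.19 to 5.12 and 9.54 to 13.7 CPM. The related Mtfr1l was lower, by -0.66 ± 0.11 and -0.51 ± 0.11, and the second call was lost with the length trend removed and the replicate block (-0.36, edgeR adjusted P = 0.0575). Inf2, a formin that assembles actin where the endoplasmic reticulum meets mitochondria, was at 418 to 518 CPM in astrocytes and 179 to 228 CPM in SB28 cells, and was lower by -1.11 ± 0.13 and -1.15 ± 0.14 (edgeR adjusted P = 0.000201 and 0.000375). Dnm2, a dynamin of endocytosis that has also been placed at fission sites, was lower by -0.36 and -0.39, and these calls were lost with the length trend removed (edgeR adjusted P = 0.0788 and 0.082), without mKate2- replicate 1 in mKate2- cells and without any 1 of the mKate2+ libraries in mKate2+ cells. Spire1, another actin nucleator, was called in mKate2- cells (0.41, edgeR adjusted P = 0.0334) and not in mKate2+ cells (0.33, 0.0617), and its call was lost without astrocyte replicate 1 (0.36) or 3 (0.35) or mKate2- replicate 1 (0.43) or 2 (0.30). In mKate2+ cells Spire1 was called in 4 of 13 other settings, with log2 values from 0.33 to 0.45.

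Among 5 measured partners of the mitofusins, 1 was higher and 2 were lower in both comparisons. Usp30, a deubiquitinase of the outer membrane, was at 43.0 to 52.1 CPM in astrocytes and 20.7 to 23.2 CPM in SB28 cells, and was lower by -1.06 ± 0.13 and -1.004 ± 0.14. Usp30 shares exonic bases with Svop (161) and Alkbh2 (329) on the opposite strand, and the strand setting of the counting is not given in the sources used here. Miga1, which acts with Miga2 on outer membrane lipids in fusion, was lower by -0.53 ± 0.12 and -0.67 ± 0.16, and Miga2 was not called (-0.31 and -0.24). In mKate2- cells the Miga1 call was lost with the length trend removed and the replicate block (-0.37, edgeR adjusted P = 0.0741), and Miga2 was called in 3 of 13 other settings (-0.32 with DESeq2, -0.39 with upper-quartile normalization and -0.41 without mKate2- replicate 3). Mtch2, an outer membrane insertase, was higher by 0.43 ± 0.13 and 0.50 ± 0.13, with calls that were lost without mKate2- replicate 1 or 3 and without mKate2+ replicate 3, and Slc25a46 was not called (0.15 and 0.15) except in mKate2- cells with the length trend removed (0.27, edgeR adjusted P = 0.0455).

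Of 8 enzymes and anchors that modify DRP1 or the mitofusins, 4 were higher and 1 was lower in both comparisons. Cdk1, the mitotic kinase that phosphorylates DRP1 among many other substrates, was at 54.3 to 64.1 CPM in astrocytes and 154 to 197 CPM in SB28 cells, and was higher by 1.55 ± 0.13 and 1.60 ± 0.12 (edgeR adjusted P = 5.2e-05 and 4.7e-05). The other 4 called genes and the 3 not called lie outside the rule for named genes and were named after their values were seen. Senp5, a SUMO protease, was higher by 1.02 and 0.93, and by 0.76 and 0.66 without astrocyte replicate 1, in which it was at 22.98 CPM against 45.6 and 46.8 CPM in the other astrocyte libraries. Higher too were Akap1, an anchor of protein kinase A, by 0.68 and 0.73, and the phosphatase gene Pgam5 by 0.64 and 0.60. In mKate2+ cells these 3 calls were lost without mKate2+ replicate 3, those of Senp5 and Akap1 also without mKate2+ replicate 1, and that of Akap1 also without astrocyte replicate 2. Mul1, a ligase of the outer membrane, was lower by -0.46 and -0.35. Its call in mKate2- cells was lost without mKate2- replicate 1, and its call in mKate2+ cells (edgeR adjusted P = 0.0462) was lost in 10 of 13 other settings, with edgeR adjusted P up to 0.205. March5, Ppp3ca and Ppp3cb were not called in either comparison, and their levels in each SB28 group overlapped those in astrocytes. Mean levels in astrocytes, mKate2- and mKate2+ cells were 114, 105 and 105 CPM for March5. They were 224, 236 and 233 CPM for Ppp3ca and 155, 155 and 147 CPM for Ppp3cb. Senp5 shares 131 exonic bases with Ncbp2, and Dnm2 shares 207 with Tmed1, on the opposite strand.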

How the data were processed

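The deposited table held raw read counts per gene ID for 9 libraries. The authors trimmed reads with Trimmomatic 0.36, aligned them to GRCm38 with STAR 2.5.2b and counted them with featureCounts (Subread 1.5.2). The annotation release and the strand setting are not given in the sources used here. Rows without a gene name (259 of 49315, 0.0105% of counts) were kept in the library totals behind CPM. Those that passed the filter were also kept in the tests, except in the fits with the length trend removed, which need a known length.

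Of each pair of groups, genes that exceeded 1 CPM in 2 or more libraries entered a TMM-normalized quasi-likelihood fit in edgeR, 1 fit a pair, with Benjamini-Hochberg adjustment over all genes tested and a threshold of 0.05. The scripts were tested on simulated data. Libraries were taken by their names, because the labels and the study's methods place the CellTrace Violet stain on different cells. Where the 3 co-cultures of a group are not separate animals, P values measure the spread between these cultures. Positions and exonic lengths (all exons merged) came from GENCODE M21.

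The members and lists were chosen with earlier results of these data known. Named were all members and, of the 35 other genes, the 10 called genes with the smallest P value in each comparison with astrocytes. Further named genes were chosen after their values were seen. Alternatives were DESeq2, upper-quartile normalization, no filter, a fit to all 9 libraries, a replicate block, removal of a length trend, and leaving out each library. The length of the longest transcript and the Fis1 to Mff ratio were chosen after seeing the data.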

Additional observations from a re-analysis of the deposited data

How the results depend on the processing

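Members called numbered 6 to 8 in mKate2- and 4 to 8 in mKate2+ cells against astrocytes over the alternatives, beside 6 and 6, while the share of all genes called ran from 34.5% to 66.6% and from 33.1% to 66.3%, lowest without the filter. In mKate2+ against mKate2- cells 0 of 10 were called under each of them. In mKate2+ cells 4 were called without astrocyte replicate 1 or 2 or mKate2+ replicate 1 or 3, where 59.7%, 52.6%, 51.0% and 49.5% of all genes were called, beside 60.1%. The other genes of mitochondrial dynamics called in mKate2+ cells ranged from 15 to 22 with 1 library left out, with 15 without mKate2+ replicate 3 (49.5% of all genes), beside 23 (60.1%). Leaving out 1 library turned the sign of small values. In mKate2+ against mKate2- cells the log2 differences ranged from -0.082 to 0.0051 for Mfn2, -0.144 to 0.033 for Opa1, -0.032 to 0.406 for Fis1, -0.037 to 0.036 for Mief1 and -0.106 to 0.149 for Mief2. The log2 ratio differences ranged from -0.069 to 0.012 for Mfn1 to Mfn2 and -0.102 to 0.073 for Mief1 to Mief2. Against astrocytes, Mfn1 ranged from -0.066 to 0.051 and Micos13 from -0.266 to 0.022 in mKate2- cells, and Mfn1 from -0.102 to 0.030 and Micos10 from -0.277 to 0.382 in mKate2+ cells. The cause of these reversals was not tested. With the length trend removed, Mff differed between mKate2+ and mKate2- cells by 0.0098 and Mief2 by -0.014, and against astrocytes Micos13 differed by 0.115 in mKate2- and Mfn1 by 0.099 in mKate2+ cells. With the replicate block added to it, these values were 0.012, -0.018, 0.115 and 0.105. Mfn1 was at -0.065 in mKate2- cells under upper-quartile normalization and at 0.041 in mKate2+ cells without the filter. These settings also moved the median log2 difference of all genes, which was 0.11 and 0.13 with the length trend removed, -0.12 and -0.12 under upper-quartile normalization and -0.21 and -0.19 without the filter. The labels do not say whether a replicate number marks a shared co-culture. After centring on group means, same-numbered libraries correlated at -0.0037, 0.136 and 0.170 (mKate2+ and mKate2-), 0.054, 0.042 and 0.023 (mKate2- and astrocytes) and -0.147, 0.066 and 0.251 (mKate2+ and astrocytes), and the block was kept as an alternative. The replicate block left 0 members called between SB28 groups, 6 in mKate2- and 5 in mKate2+ cells against astrocytes, where Mtfp1 was lost (edgeR adjusted P = 0.0888), and 22 and 22 of the other genes. Levels per kilobase moved beyond 1 SD in 28 of 30 cases with the longest transcript's length.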
